A study of Mus musculus with 16 samples.

Results

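Interferon-stimulated genes are the antiviral effectors, sensors and regulators that a cell transcribes after it detects interferon. The 37 genes described here were chosen by name as such genes, with earlier results of these data known. They comprise 4 sensors of foreign nucleic acid, 3 transcription factors, the ubiquitin-like Isg15 and its protease Usp18. The list also holds 4 Ifit, 4 Oas and 2 Mx genes and 4 GTPases of the Gbp and Irg families. The rest are 2 enzymes that act on nucleotides, 2 membrane proteins, 2 secreted proteins and 8 other effectors. All 37 were among the 39179 genes of the files and among the 18074 genes that passed the filter on low counts. Their levels were measured in total RNA from hippocampal and cortical neurons of adult TERT-AD mice, in a study of neurons in which Tert, the catalytic subunit of telomerase, was activated in vivo. The 4 groups were hippocampal neurons after tamoxifen, hippocampal neurons after vehicle (control), cortical neurons after tamoxifen and cortical neurons after vehicle. All groups share the TERT-AD line and the strain label B6.129S6.SvEvTac. The sources used here do not give the driver through which tamoxifen acts on Tert, the number of animals, their age beyond adult, the dose, or the method by which neurons were separated.

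Type I and type III interferons bind receptors on the cell surface, and the receptors' Janus kinases phosphorylate STAT proteins. STAT2 joins IRF9 in the complex ISGF3, which binds the interferon-stimulated response element (ISRE) in the promoters of its targets. Its targets include IRF7, STAT2 and IRF9, so the response feeds itself, while USP18 and SOCS proteins damp it. In brain, microglia, endothelial cells and cells of the choroid plexus are known to express many of these genes, and neurons express them at a low level without infection.

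Each group had 4 libraries. They were summed in neighbouring pairs, which resembled each other closely, to 8 samples, 2 per group (A from libraries 1 and 2, B from libraries 3 and 4), with 83527470 to 108293362 counts in genes. Levels are CPM, read counts scaled to library sizes adjusted by TMM. Tert itself stood at 0.931 and 2.04 CPM in hippocampal tamoxifen samples, against 1.29 and 3.59 CPM in hippocampal controls, and at 1.26 and 2.05 CPM in cortical tamoxifen samples, against 0.546 and 1.32 CPM in cortical controls, and neither contrast passed the edgeR test (adjusted p = 1 and 0.834). It is not stated whether transcripts of a transgene would be counted under Tert. The labelled neurons also held other cells: the summed level of 8 oligodendrocyte genes was 21150 to 81550 CPM and that of 10 neuronal genes 2060 to 4673 CPM. Cortical tamoxifen sample B stood apart from the other cortical samples, with 4673 CPM of the neuronal genes against 2918 to 3416 CPM, and 20.35% of its counts in mitochondrial genes against 29.88 to 31.5%. The choroid plexus genes also split samples of 1 group: their sum was 43.4 CPM in hippocampal tamoxifen sample A while the remaining hippocampal samples had 7704 to 15480 CPM, and 6270 CPM in cortical tamoxifen sample A, while the remaining cortical samples had 5.34 to 1112 CPM. In such bulk samples fewer cells of a type and less RNA per cell cannot be told apart.

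The ISRE was searched for in promoters because it is the site that ISGF3 binds in its targets. RefSeq windows of 250 bases before to 50 bases after the start (GRCm38.p6) were held for 28 of the 37 genes. The core searched was GAAANNGAAA on either strand, where copies may overlap. At least 1 copy was in the window of 18 of the 28 genes (64.3%), against 3.99% of the 27025 genes of the table. In the bases before the start alone it was in 15 of the 28 (53.6%), against 3.46%. The other interferon motif, the GAS core TTCNNNGAA, was in 6 of the 28 (21.4%), against 9.55%. A match is a run of letters and not a measured binding site. The 250 bases before the start are printed for the 6 genes with a core there that had the smallest p for tamoxifen averaged over both regions. The 3 Ifit genes among them lie in 1 cluster on chromosome 19. Irf7, Cmpk2 and Oasl2 had a smaller averaged p than Ifit1, Rsad2, Stat2 and Oas1a, but no core in their windows. Sequences run 5′ to 3′ on the strand of the gene, and capitals mark the core, which reads TTTC at both ends where it lies on the other strand.
I830012O16Rik (Ifit3b in RefSeq), chr19:34607707-34607956, plus strand: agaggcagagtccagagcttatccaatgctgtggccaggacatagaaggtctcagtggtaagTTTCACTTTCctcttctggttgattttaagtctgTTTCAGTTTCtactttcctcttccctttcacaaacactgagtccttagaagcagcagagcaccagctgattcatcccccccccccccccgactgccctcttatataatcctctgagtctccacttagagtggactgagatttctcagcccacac
Ifit3, chr19:34583279-34583528, plus strand: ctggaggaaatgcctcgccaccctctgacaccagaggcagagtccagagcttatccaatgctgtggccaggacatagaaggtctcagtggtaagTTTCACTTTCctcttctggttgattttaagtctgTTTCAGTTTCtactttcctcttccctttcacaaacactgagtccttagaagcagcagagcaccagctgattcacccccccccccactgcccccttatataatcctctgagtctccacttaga
Ifit1, chr19:34640639-34640888, plus strand: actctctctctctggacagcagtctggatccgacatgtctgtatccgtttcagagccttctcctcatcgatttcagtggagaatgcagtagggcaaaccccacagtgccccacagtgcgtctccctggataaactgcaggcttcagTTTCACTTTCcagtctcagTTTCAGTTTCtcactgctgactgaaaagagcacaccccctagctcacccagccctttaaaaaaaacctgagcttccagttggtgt
Rsad2, chr12:26456453-26456702, minus strand: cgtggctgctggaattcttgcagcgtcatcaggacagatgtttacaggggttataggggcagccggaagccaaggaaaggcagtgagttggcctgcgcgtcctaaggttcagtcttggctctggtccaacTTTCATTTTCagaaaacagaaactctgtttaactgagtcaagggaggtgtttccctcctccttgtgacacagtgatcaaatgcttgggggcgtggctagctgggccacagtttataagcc
Stat2, chr10:128270248-128270497, plus strand: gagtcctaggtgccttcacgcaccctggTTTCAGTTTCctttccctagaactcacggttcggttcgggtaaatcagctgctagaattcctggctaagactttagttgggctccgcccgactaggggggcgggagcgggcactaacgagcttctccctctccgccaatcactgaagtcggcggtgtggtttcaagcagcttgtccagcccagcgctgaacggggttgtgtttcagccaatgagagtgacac
Oas1a, chr5:120907526-120907775, minus strand: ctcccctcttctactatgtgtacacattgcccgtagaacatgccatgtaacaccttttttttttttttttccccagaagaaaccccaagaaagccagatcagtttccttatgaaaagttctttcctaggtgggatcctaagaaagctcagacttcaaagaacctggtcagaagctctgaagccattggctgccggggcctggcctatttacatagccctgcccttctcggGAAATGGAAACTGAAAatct

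The 3 Ifit promoters each held the same pair of cores, TTTCACTTTC and then TTTCAGTTTC. Counted from the start, the pair began at bases -188 and -154 in I830012O16Rik, at -156 and -122 in Ifit3, and at -104 and -85 in Ifit1. Stat2 held a single TTTCAGTTTC at -222 and Rsad2 a TTTCATTTTC at -120. In Oas1a, GAAATGGAAA at -20 and GAAACTGAAA at -14 overlapped on the gene's own strand. The promoters of I830012O16Rik and Ifit3 are near copies of each other, as are the transcripts: 63.0% of the I830012O16Rik transcript lay in stretches of at least 50 bases identical to Ifit3. A read that lies wholly within such a stretch cannot be assigned to 1 of the genes. Of the reads per library, 27.53 to 35.43% were aligned to several places. The counts of these 2 genes, and of Oas1a, 84.7% of which is shared with Oas1g, are therefore uncertain.

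Per length of exon, the most abundant of the genes over the 8 samples were Ifitm3 with 21.8 CPM per kilobase, Ifi27 with 19.6, Lgals3bp with 10.48, Bst2 with 9.26 and Ifit3 with 4.24. IFITM3 blocks entry of viruses at endosomes, and BST2 (tetherin) holds budding virus at the cell surface. Those 5 stood well above the scarcest, Oas3 with 0.0171, Mx1 with 0.0356 and Zbp1 with 0.0725 CPM per kilobase. Oas3 had 75 counts over the 16 libraries with 0 in at least 1 of them, and Mx1 had 111, so their fold changes rest on few reads. In CPM, 28 of the 37 genes reached 1 in every sample and 3 were under 1 in every sample. Neighbours in this order, such as Ifitm3 and Ifi27, did not keep their places in all groups: Ifi27 had the higher level in hippocampal controls and the lower in cortical controls.

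**Figure D1:**
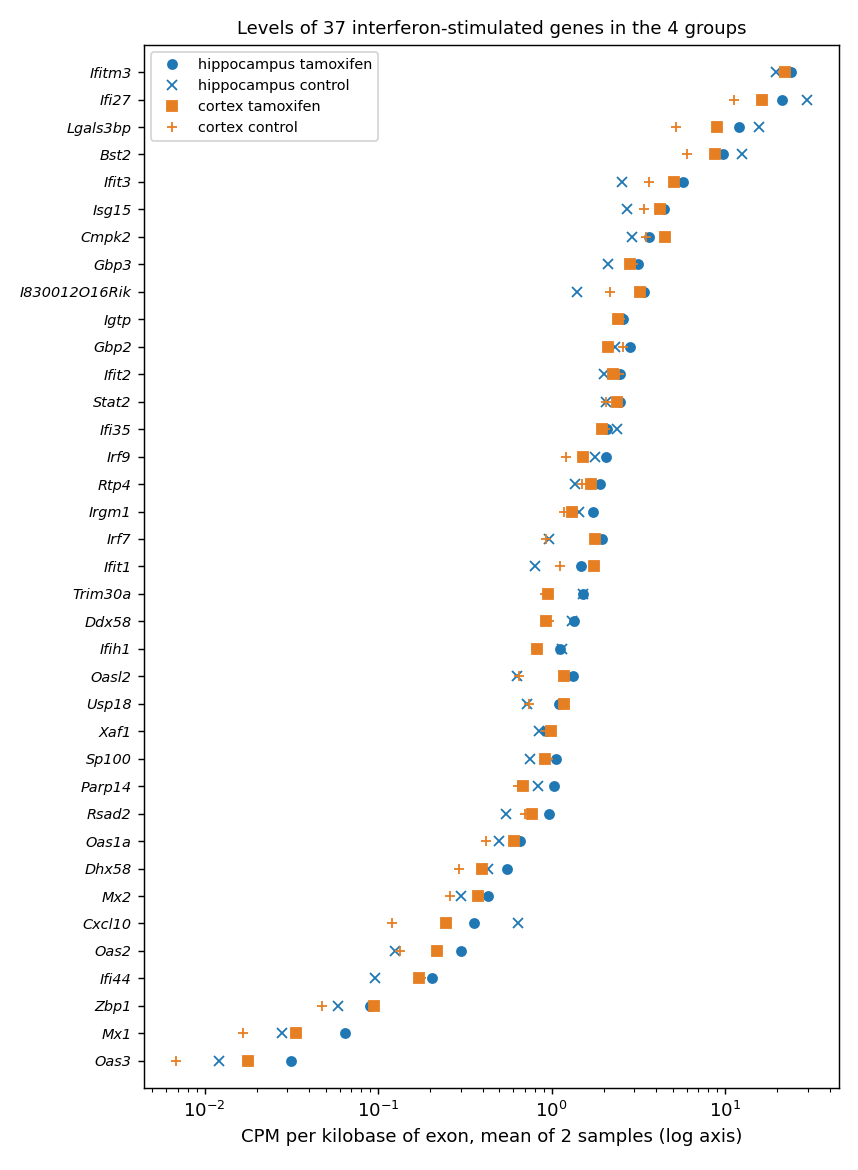
Level of each of the 37 genes in the 4 groups as CPM per kilobase of exon (log axis), where each symbol is the mean of 2 samples and genes run down the page by their mean. Ifitm3, Ifi27, Lgals3bp and Bst2 stand highest, and the controls of the 2 regions are farthest apart for Cxcl10, Lgals3bp and Ifi27.

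In hippocampus, most of the genes stood higher in tamoxifen than in control samples, but none passed the test across all genes. Of the 37, 31 had a positive log2 fold change, against 48.7% of all genes tested, and the median was 0.37, against -0.01 over all genes. The range was -0.83 to 1.36. Both tamoxifen samples lay above both controls for 23 genes, against 21% of all genes, and below them for Cxcl10 and Ifi35, against 18.9% of all genes, while the groups overlapped for 12. By edgeR's quasi-likelihood test 0 of 37 passed (adjusted p = 1 for each), as 0% of all genes did. At an unadjusted p under 0.05, 5 were higher, against 2.14% of all genes, and 0 were lower, against 1.47%. DESeq2, limma with quality weights and limma with correlated libraries also called 0, against 0.0297%, 0% and 0.0179% of all genes. The median log2(CPM + 0.5) over the 37 was 2.78 and 2.54 in the tamoxifen samples and 2.08 and 2.29 in the controls. Tamoxifen sample A was the highest of the 4 for 25 genes, against 30.7% of all genes, and control sample A the lowest for 26, against 29.6%. Without tamoxifen sample A the median was 0.22, and without control sample A it was 0.24, with 27 genes positive.

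In cortex the 2 tamoxifen samples stood apart from each other, and with TMM scaling the direction of most genes rested on sample A. A positive log2 fold change was found for 29 of the 37, against 55.4% of all genes, and the median was 0.32, against 0.04. With libraries scaled to the sum of their gene counts, which moves the cortical median of all genes to 0.25, 36 were positive with a median of 0.47. The sum over the 37 genes was 293.5 CPM in tamoxifen sample A and 158.4 CPM in sample B. It was 189.3 and 181.5 CPM in the controls. By these TMM-scaled values 1 tamoxifen sample lay above both controls and the other below them. The TMM factor was 1.14 in sample B and 0.826 to 0.866 in the other cortical samples, so this placing depends on the scaling. Sample A was the highest of the 4 for 33 genes, against 27.5% of all genes, and sample B the lowest for 24, against 34%. By TMM-scaled CPM both tamoxifen samples lay above both controls for only 5 genes, against 16.2% of all genes. Both lay below both controls for 0, against 15%. The 5 were Dhx58, Irf7, I830012O16Rik, Mx1 and Cmpk2. All 5 were also among the 23 in hippocampus, and 2.98% of all genes lay higher without overlap in both regions. With libraries scaled to the sum of their gene counts, further genes lay above both controls in cortex, such as Ifit3, Irf9 and Oasl2. Ifit3 then stood at 9.06 and 7.68 CPM in tamoxifen samples, against 5.96 and 4.92 in the controls. Others still overlapped, such as Gbp3 at 10.1 and 6.96 CPM against 8.52 and 7.66. In edgeR 0 of 37 passed (adjusted p = 0.83 to 0.99), as 0% of all genes did. Unadjusted p under 0.05 was reached by 2 that were higher, against 2.47% of all genes, and by 0 that were lower, against 2.51%. DESeq2, limma with quality weights and limma with correlated libraries called 0, against 0.0297%, 0% and 0.0896% of all genes. Without tamoxifen sample A the cortical median was -0.30, 10 of 37 were positive, and Ddx58 and Ifitm3 were called lower, where 10.7% of all genes were called. Without sample B, 37 of 37 were positive and the median was 0.58.

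**Figure D2:**
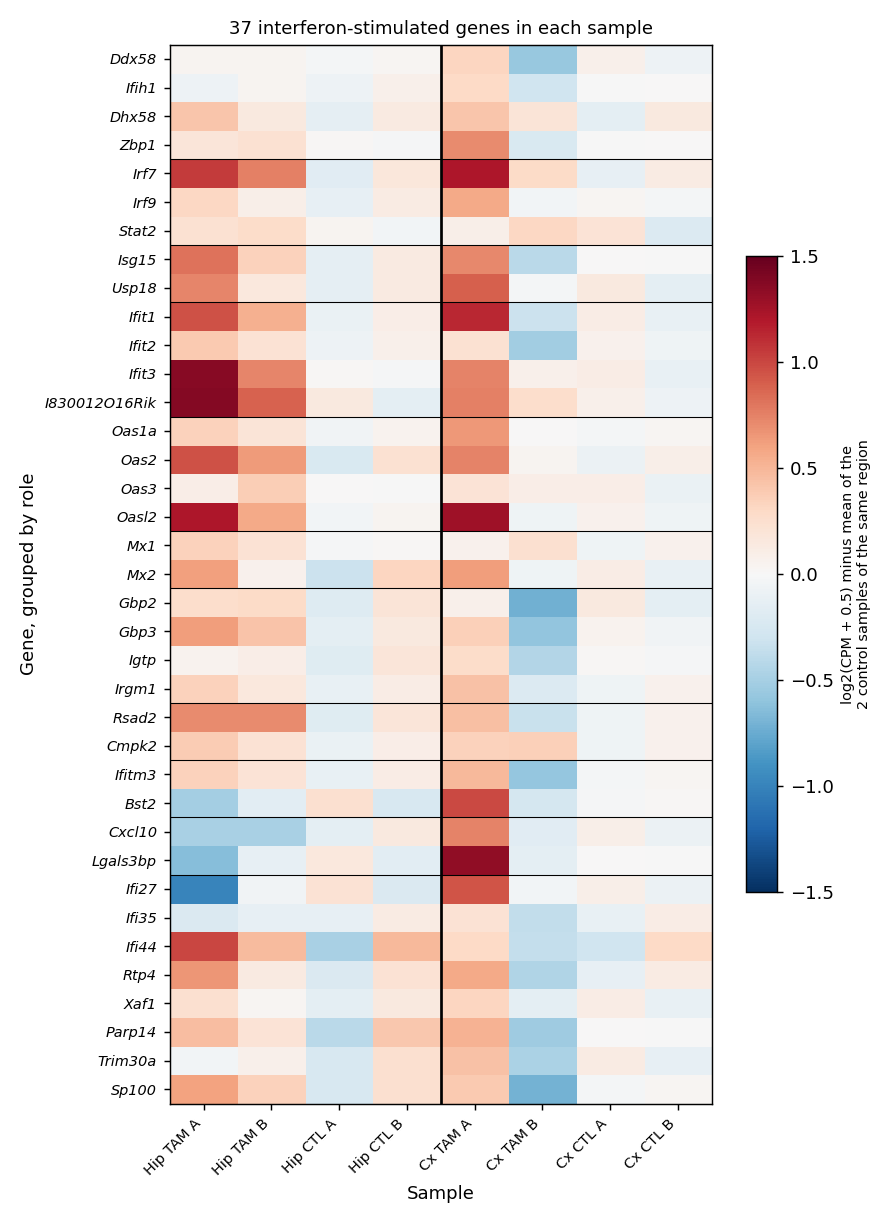
Each cell is log2(CPM + 0.5) of a gene in a sample minus the mean of the 2 controls of its region (Hip, hippocampus; Cx, cortex; TAM, tamoxifen; CTL, control), with genes grouped by role. Hippocampal tamoxifen samples A and B are red for most genes, cortical tamoxifen sample A is red for most and sample B blue for many.

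**Figure D3:**
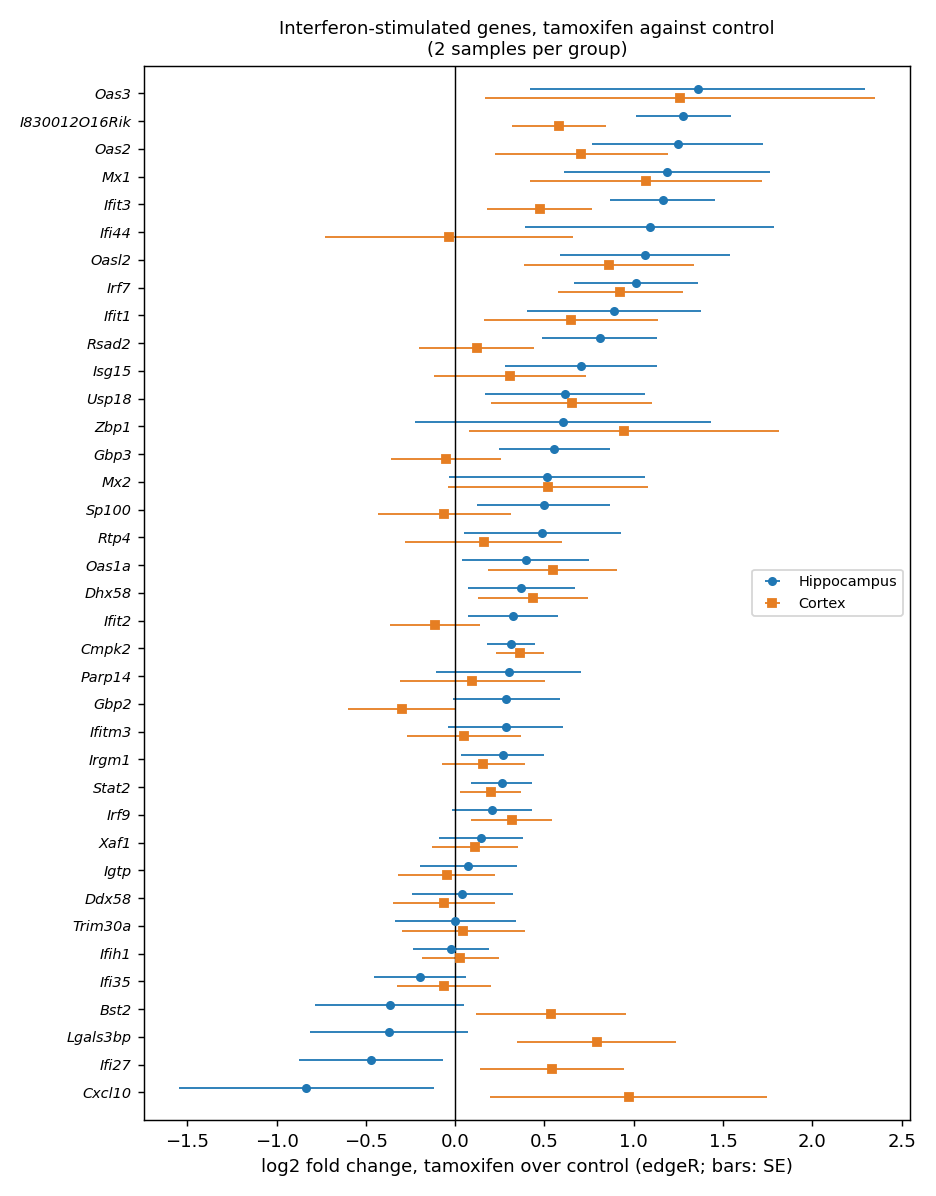
Log2 fold change of each gene, tamoxifen over control, in hippocampus (circles) and cortex (squares), with standard errors from edgeR. Oas3, I830012O16Rik, Oas2, Mx1 and Ifit3 stand at the top in hippocampus, and Cxcl10, Ifi27, Lgals3bp and Bst2 are negative in hippocampus and positive in cortex.

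Among the sensors, Ddx58 (RIG-I) and Ifih1 (MDA5) detect viral RNA in the cytosol, Dhx58 (LGP2) modulates them and Zbp1 detects left-handed nucleic acid. Ddx58, the most abundant, stood at 9.45 and 9.44 CPM in hippocampal tamoxifen samples, against 9.002 and 9.38 in the controls, and at 8.67 and 4.44 CPM in cortical tamoxifen samples, against 7.22 and 6.42 in the controls. The hippocampal groups lay apart by little, and in cortex the tamoxifen samples lay on both sides of the controls. Its log2 fold changes were 0.04 (SE 0.28) and -0.06 (SE 0.28). The 4 sensors ranged from -0.02 to 0.60 in hippocampus and from -0.06 to 0.94 in cortex, the highest being Zbp1, with 197 counts over all libraries.

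Of the transcription factors, Irf7, which drives type I interferon genes, stood apart from the other two. It was measured at 6.52 and 5.22 CPM in hippocampal tamoxifen samples, against 2.52 and 3.30 in the controls, and at 7.17 and 3.53 CPM in cortical tamoxifen samples, against 2.53 and 3.10 in the controls. In both regions each tamoxifen sample was above each control, by a wide gap in hippocampus and a narrow one in cortex, where sample B was near the controls. The log2 fold change was 1.01 (SE 0.35) in hippocampus and 0.92 (SE 0.35) in cortex; edgeR gave adjusted p of 1 and 0.83. Without cortical tamoxifen sample A the cortical value was 0.33. Irf7 shares 45 bases of its span with Phrf1 on the other strand, which had 28175 counts against 3380 for Irf7 and log2 fold changes of 0.04 and 0.11, and the strand setting of the counts is not given. Stat2 stood at 10.6 and 10.98 CPM in hippocampal tamoxifen samples, against 9.25 and 8.79 in the controls, and at 9.54 and 11.2 CPM in cortical tamoxifen samples, against 10.3 and 7.71 in the controls. Its hippocampal groups did not overlap and its cortical groups did, with log2 fold changes of 0.26 (SE 0.17) and 0.20 (SE 0.17). Irf9, the DNA-binding subunit of ISGF3, gave 0.21 (SE 0.23) and 0.32 (SE 0.23).

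ISG15 is attached to proteins like ubiquitin, and USP18 removes it and blocks the type I receptor. Isg15 stood at 3.96 and 2.73 CPM in hippocampal tamoxifen samples, against 1.81 and 2.30 in the controls, and at 4.54 and 1.81 CPM in cortical tamoxifen samples, against 2.58 and 2.54 in the controls. The hippocampal groups were apart, while in cortex sample A was far above the controls and sample B below them. The log2 fold changes were 0.70 (SE 0.43) and 0.31 (SE 0.43), and those of Usp18 0.62 (SE 0.45) and 0.65 (SE 0.45).

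The Ifit genes encode proteins that bind foreign RNA caps and ends, and with the Oas genes they gave the highest class medians in hippocampus. Ifit3 stood at 12.2 and 7.66 CPM in hippocampal tamoxifen samples, against 4.50 and 4.36 in the controls, and at 10.97 and 6.74 CPM in cortical tamoxifen samples, against 6.88 and 5.86 in the controls. The hippocampal controls were almost equal and both tamoxifen samples well above them, and in cortex only sample A was clear of the controls. Its log2 fold change was 1.16 (SE 0.29) in hippocampus and 0.47 (SE 0.29) in cortex. I830012O16Rik stood at 8.05 and 5.595 CPM in hippocampal tamoxifen samples, against 3.14 and 2.49 in the controls, and at 7.62 and 5.28 CPM in cortical tamoxifen samples, against 4.58 and 4.04 in the controls. Here the groups were apart in both regions. The log2 fold change was 1.28 (SE 0.27) in hippocampus, where its p was the smallest of the 37, and 0.58 (SE 0.26) in cortex, or 0.29 without tamoxifen sample A; edgeR gave adjusted p of 1 and 0.83. Ifit2, the most abundant of the class in CPM, stood at 10.4 and 9.16 CPM in hippocampal tamoxifen samples, against 7.35 and 8.29 in the controls, and at 11.2 and 6.45 CPM in cortical tamoxifen samples, against 10 and 9.06 in the controls. Only its hippocampal groups were apart, and the log2 fold changes were 0.32 (SE 0.25) and -0.11 (SE 0.25). Ifit1 gave 0.89 (SE 0.49) and 0.65 (SE 0.49), with 7.07 CPM in cortical tamoxifen sample A as its highest value and 1.95 CPM in hippocampal control sample A as its lowest. All 4 genes of the class were positive in hippocampus (median 1.03) and 3 of 4 in cortex (median 0.53).

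The Oas genes encode enzymes that sense double-stranded RNA and make the second messenger of RNase L; Oasl2 is a relative of them. Oasl2 stood at 6.36 and 3.89 CPM in hippocampal tamoxifen samples, against 2.38 and 2.53 in the controls, and at 6.81 and 2.38 CPM in cortical tamoxifen samples, against 2.65 and 2.40 in the controls. In hippocampus both tamoxifen samples were above the controls, and in cortex sample B lay just below both. The log2 fold changes were 1.06 (SE 0.47) and 0.86 (SE 0.48), and without cortical tamoxifen sample A the cortical value was -0.09. Oas2 stood at 1.53 and 1.12 CPM in hippocampal tamoxifen samples, against 0.393 and 0.725 in the controls, and at 1.32 and 0.625 CPM in cortical tamoxifen samples, against 0.522 and 0.662 in the controls. Only the hippocampal groups were apart, with a log2 fold change of 1.25 (SE 0.48), against 0.71 (SE 0.48) in cortex. All 4 genes of the class were positive in both regions, with medians of 1.15 and 0.78 and, for Oas1a, 0.39 (SE 0.36) and 0.55 (SE 0.36).

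The Mx proteins are dynamin-like GTPases that trap viral nucleocapsids. Mx2 stood at 1.32 and 0.748 CPM in hippocampal tamoxifen samples, against 0.452 and 0.997 in the controls, and at 1.23 and 0.572 CPM in cortical tamoxifen samples, against 0.712 and 0.535 in the controls. Its groups overlapped in both regions, and the log2 fold change was 0.52 in each (SE 0.55 and 0.56). Mx1 was apart in both regions at very low levels, 0.265 and 0.200 CPM in hippocampal tamoxifen samples against 0.0920 and 0.111 in the controls, and 0.0870 and 0.158 CPM in cortical tamoxifen samples against 0.0356 and 0.0845 in the controls.

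GTPases of the Gbp and Irg families act against intracellular pathogens and are strong targets of interferon gamma. Gbp3 stood at 10.8 and 9.34 CPM in hippocampal tamoxifen samples, against 6.10 and 7.62 in the controls, and at 12.3 and 6.11 CPM in cortical tamoxifen samples, against 9.84 and 9.13 in the controls. The hippocampal groups were apart, and the cortical tamoxifen samples lay on both sides of the controls. Log2 fold changes were 0.56 (SE 0.31) and -0.05 (SE 0.31). The class was lower than the Ifit and Oas classes, with a median of 0.28 in hippocampus (4 of 4 positive) and -0.05 in cortex (1 of 4 positive); no test of the difference between classes was made. Igtp overlaps Irgm2 over 99.2% of its span on the same strand, so its counts are uncertain.

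The enzyme encoded by Rsad2 (viperin) makes a chain-terminating nucleotide, and its neighbour on chromosome 12, Cmpk2, encodes a mitochondrial nucleotide kinase. Rsad2 stood at 4.17 and 4.14 CPM in hippocampal tamoxifen samples, against 2.01 and 2.74 in the controls, and at 4.33 and 2.31 CPM in cortical tamoxifen samples, against 2.88 and 3.21 in the controls. The hippocampal tamoxifen samples agreed closely and were above both controls, while the cortical ones were on both sides. The log2 fold change was 0.81 (SE 0.32) in hippocampus and 0.12 (SE 0.32) in cortex. Cmpk2 stood at 12.3 and 10.9 CPM in hippocampal tamoxifen samples, against 8.66 and 9.93 in the controls, and at 14.3 and 14.4 CPM in cortical tamoxifen samples, against 10.6 and 11.6 in the controls. Its 2 cortical tamoxifen samples were alike and above both controls. With libraries scaled to the sum of their gene counts they stood at 11.8 and 16.4 CPM, against 9.2 and 9.76 in the controls. They were then still above both controls but not alike. Its log2 fold change was 0.31 (SE 0.13) in hippocampus and 0.37 (SE 0.13) in cortex, where its p was the smallest of the 37 (adjusted p = 0.83 in edgeR).

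**Figure D4:**
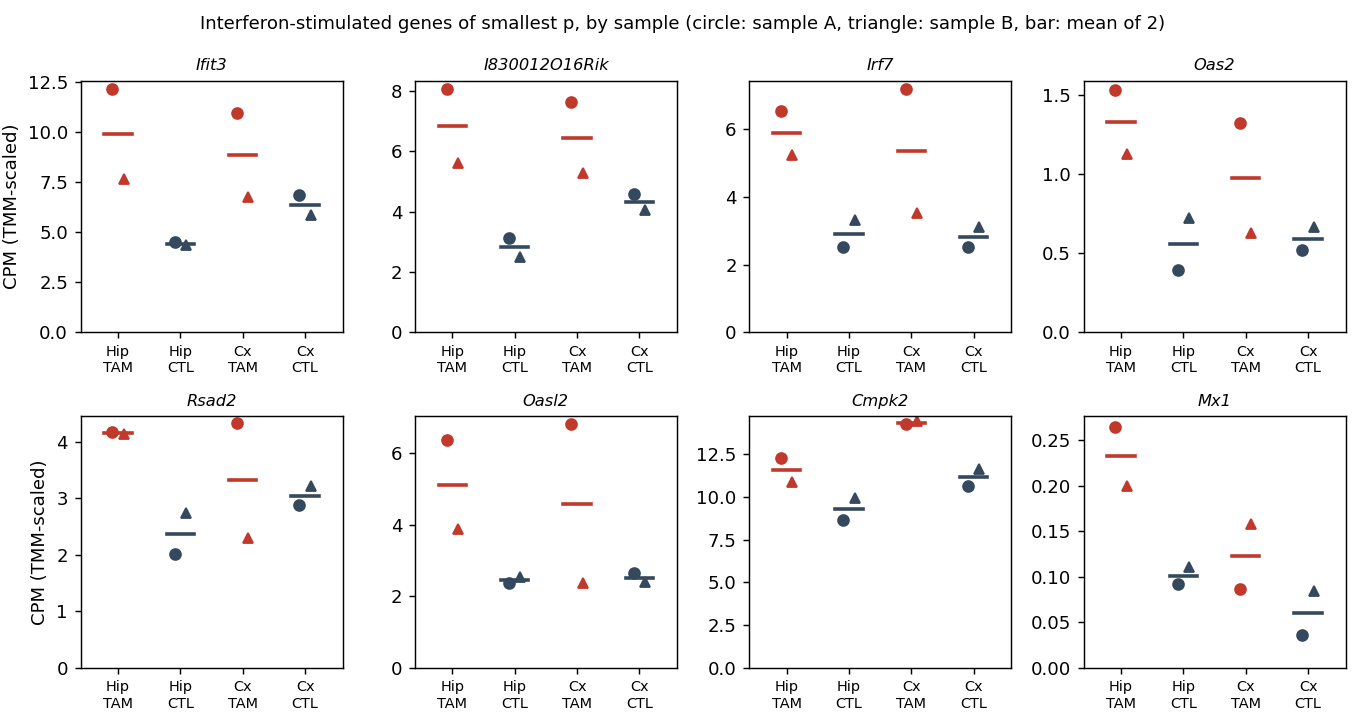
CPM in each sample of the 8 genes of smallest edgeR p in hippocampus. Hippocampus is left and cortex right in each panel, with tamoxifen in red and control in dark (circle, sample A; triangle, sample B; bar, mean of 2). In hippocampus both tamoxifen symbols lie above both controls in all 8 panels, and in cortex they do so for I830012O16Rik, Irf7, Cmpk2 and Mx1.

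Ifitm3 stood at 16.9 and 15.4 CPM in hippocampal tamoxifen samples, against 12.2 and 14.3 in the controls, and at 20.5 and 9.49 CPM in cortical tamoxifen samples, against 14.2 and 14.8 in the controls. The 2 cortical tamoxifen samples were thus the highest and the lowest of that region. Its log2 fold changes were 0.28 (SE 0.32) and 0.05 (SE 0.32). Among the 8 other effectors the hippocampal log2 fold changes ran from -0.47 for Ifi27 to 1.09 for Ifi44 (SE 0.70), a gene with 768 counts in all whose hippocampal controls differed, at 0.234 and 0.938 CPM. Sp100, of nuclear bodies, gave 0.50 (SE 0.37) in hippocampus with groups apart, and -0.06 (SE 0.37) in cortex. In cortex the 8 ran from -0.06 to 0.54.

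In hippocampus 6 genes were negative: Ifi27, Bst2, Ifi35, Ifih1 and the secreted Lgals3bp and Cxcl10, a chemokine for T cells. All but Ifi35 (-0.20 and -0.06) were positive in cortex, Ifih1 with values near 0 in both regions (-0.02 and 0.03). Ifi27 stood at 21.3 and 41.2 CPM in hippocampal tamoxifen samples, against 49.6 and 36.9 in the controls, and at 31.9 and 15.8 CPM in cortical tamoxifen samples, against 17.4 and 15.4 in the controls. Lgals3bp stood at 28.2 and 40.5 CPM in hippocampal tamoxifen samples, against 49.1 and 39.6 in the controls, and at 37.9 and 13.3 CPM in cortical tamoxifen samples, against 14.9 and 14.7 in the controls. For both genes sample A stood apart, low in hippocampus and high in cortex, while sample B lay between or near the controls. Bst2 stood at 6.42 and 8.33 CPM in hippocampal tamoxifen samples, against 11.2 and 7.84 in the controls, and at 9.60 and 3.71 CPM in cortical tamoxifen samples, against 4.51 and 4.65 in the controls. Cxcl10 stood at 0.547 and 0.540 CPM in hippocampal tamoxifen samples, against 0.820 and 1.12 in the controls, and at 0.638 and 0.106 CPM in cortical tamoxifen samples, against 0.226 and 0.141 in the controls. For Bst2 tamoxifen sample A was lowest in hippocampus and highest in cortex, where sample B was lowest, while Cxcl10 was low in both hippocampal tamoxifen samples. Cxcl10 lies wholly within Art3 on the other strand, which had 2026 counts against 440 for Cxcl10.

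Sample A after tamoxifen was the lowest of 4 in hippocampus and the highest of 4 in cortex for Bst2, Ifi27, Ifi35, Ifih1 and Lgals3bp. These 5 of 37 are the same share as over all genes (13.5%), so the pattern is not particular to the 37. The choroid plexus genes were likewise lowest and highest in these samples, with 43.4 and 7910 CPM in hippocampal tamoxifen samples A and B against 15480 and 7704 CPM in the controls, and 6270 and 5.34 CPM in cortical tamoxifen samples against 1112 and 7.65 CPM in the controls. None of the 10 choroid plexus genes was at 0 in any sample, and Ttr, the thyroid hormone carrier of that tissue, was at 33.9 CPM in hippocampal tamoxifen sample A and 2.79 CPM in cortical tamoxifen sample B. The part of these markers in the result was not tested. The difference of the 2 regional effects, hippocampal minus cortical, was -1.81 (SE 1.05) for Cxcl10, -1.16 (SE 0.63) for Lgals3bp, -1.01 (SE 0.57) for Ifi27, -0.90 (SE 0.59) for Bst2 and, at the other end, 0.70 (SE 0.37) for I830012O16Rik (edgeR adjusted p = 0.90 to 0.914). Of the 37 genes 0 passed that test and 0% of all genes did. DESeq2, limma with quality weights and limma with correlated libraries called 0 too, against 0.0112%, 0% and 0.669% of all genes. In edgeR 0 reached an unadjusted p under 0.05 in either direction, where 2.66% of all genes did so as higher and 2.77% as lower. Of the differences 23 were positive, 15 with libraries scaled to the sum of their gene counts, and 11 without cortical tamoxifen sample B. Without cortical tamoxifen sample A the difference was -0.03 for Cxcl10, -0.22 for Lgals3bp and -0.42 for Ifi27.

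**Figure D5:**
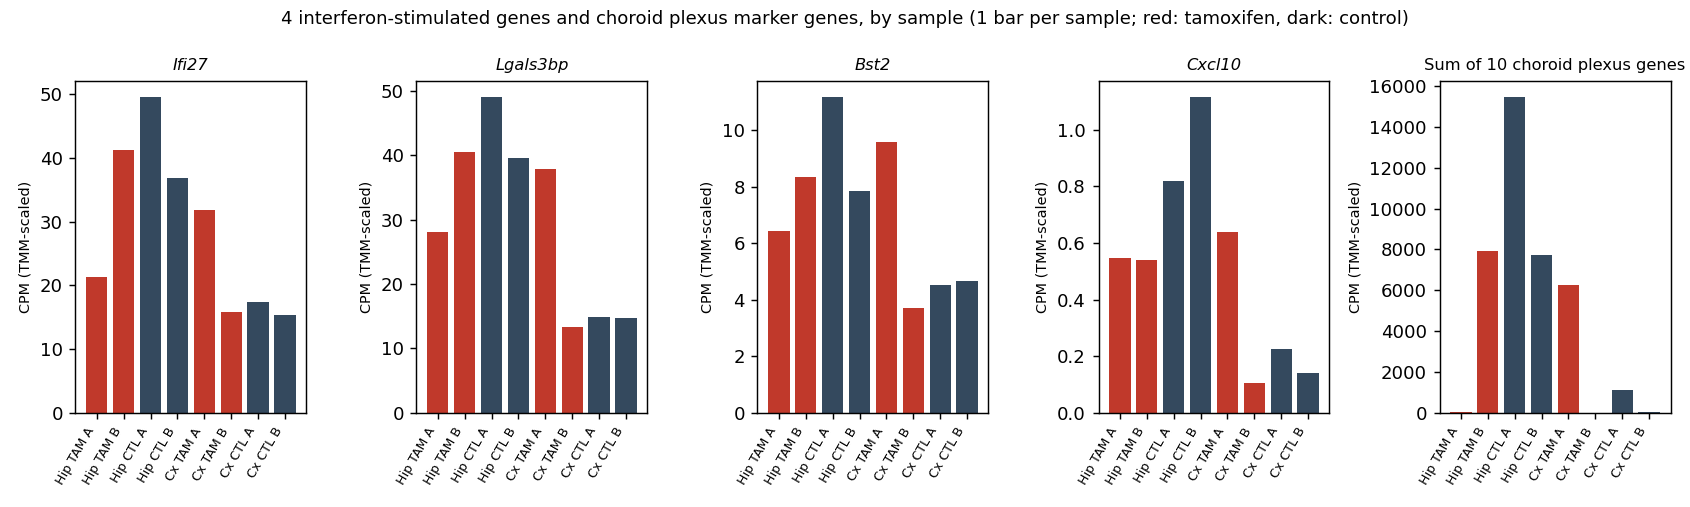
CPM of Ifi27, Lgals3bp, Bst2 and Cxcl10 and of the sum of 10 choroid plexus genes in each sample (1 bar per sample, tamoxifen red, control dark). Ifi27, Lgals3bp and Bst2 are lowest of the hippocampal samples where the choroid plexus sum is 43.4 CPM and highest of the cortical samples where it is 6270 CPM.

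Averaged over both regions, 34 of 37 genes had a positive log2 fold change, against 52.6% of all genes, with a median of 0.26, against 0.01. At an unadjusted p under 0.05, 7 were higher, against 2.29% of all genes: I830012O16Rik, Ifit3, Irf7, Cmpk2, Oas2, Oasl2 and Mx1. By edgeR 0 of 37 passed (adjusted p = 0.961 or more), against 0.0111% of all genes. DESeq2 called I830012O16Rik alone, against 0.0784% of all genes. Both limma fits called 0, against 0% of all genes with quality weights and 0.0239% with correlated libraries. This average takes the regions as separate samples, and the labels do not say whether they came from the same animals. Without cortical tamoxifen sample A, 19 of 37 were positive and the median was 0.02, with I830012O16Rik called, where 4.9% of all genes were.

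In the control samples, hippocampus was set against cortex. The genes split evenly, with 19 of 37 positive, against 50.1% of all genes, and a median of 0.00. With libraries scaled to the sum of their gene counts, which moves the median of all genes to 0.39, 32 were positive and 7 were called, where 11.4% of all genes were. Hippocampal controls lay above cortical controls without overlap for 13 genes, against 34.6% of all genes, and below them for 9, against 33.4%. No gene of the 37 passed in edgeR, against 6.19% of all genes. At an unadjusted p under 0.05, 5 were higher in hippocampus, against 14.7%, and 0 lower, against 13%. Those of smallest p were Lgals3bp at 1.59 on the log2 scale (SE 0.45, adjusted p = 0.081 in edgeR), Ifi27 with 1.40 (SE 0.41, adjusted p = 0.0858), Cxcl10 with 2.39 (SE 0.77, adjusted p = 0.104) and Bst2 with 1.05 (SE 0.42, adjusted p = 0.163). DESeq2 called 3, Cxcl10, Lgals3bp and Ifi27, against 17.8% of all genes. With limma 7 were called with quality weights, against 26.2% of all genes, and 3 with correlated libraries, against 20.2%. When either cortical tamoxifen sample was left out, although neither belongs to the groups compared here, edgeR called 7, against 20.7% of all genes. The calls by DESeq2, by limma and without a cortical tamoxifen sample are smaller shares of the 37 than of all genes. Those with libraries scaled to the sum of their gene counts are a larger share. Without any 1 of the 4 control samples edgeR called 0 of the 37, and 0 to 0.0106% of all genes. All 4 Ifit genes were lower in hippocampal than in cortical controls, at -0.62 to -0.29. Beside these values, the choroid plexus sum was 15480 and 7704 CPM in hippocampal controls against 1112 and 7.65 CPM in cortical controls, and the microglial sum 1527 and 2346 CPM against 920.8 and 1074 CPM, with 6 of 10 microglial genes called higher in hippocampus, and 0 of 10 without any 1 of the control samples. The part of these cells in the region contrast was not tested.

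The other genes of the pathway gave 0 calls for tamoxifen in either region by edgeR, with 1 in hippocampus and 3 in cortex at an unadjusted p under 0.05, and 0 calls by DESeq2 and both limma fits. Without cortical tamoxifen sample A, 10 of the 89 tested (11.2%) were called in cortex, near the 10.7% of all genes. With the 16 libraries counted separately Tlr3 was called there, where 3.36% of all genes were. Of 21 interferon genes, 19 were in the files and 0 passed the filter on low counts: over all 16 libraries Ifng had 10 counts and Ifnb1 had 1. The receptor chains were all measured, with 1 of 6 positive in hippocampus and 3 of 6 in cortex. Ifngr1, of the interferon gamma receptor, had the smallest p in hippocampus at -0.38 (SE 0.18), and Ifngr2 in cortex at 0.23 (SE 0.19). Of 11 other JAK, STAT and IRF genes, 5 were positive in each region, the smallest p being that of Irf8 in hippocampus at -0.35 (SE 0.21) and of Irf3 in cortex at -0.31 (SE 0.14).

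Genes that sense nucleic acid upstream of interferon were mostly negative, with 3 of 16 positive in hippocampus and 4 of 16 in cortex (medians -0.18 and -0.11). Tlr3, the endosomal receptor for double-stranded RNA, stood at 13.7 and 12.2 CPM in cortical tamoxifen samples, against 19.1 and 17.5 in the controls. These groups were apart, at -0.50 on the log2 scale (SE 0.12, adjusted p = 0.83 in edgeR). In hippocampus it stood at 23.6 and 22.1 CPM in tamoxifen samples, against 25.0 and 25.0 in the controls, and the smallest p there was that of Tlr9 at -0.49 (SE 0.21). Of 11 further pathway genes tested, among them Socs1 and Socs3, 5 were positive in hippocampus and 6 in cortex. The smallest p was that of Ube2l6 in hippocampus at 0.25 (SE 0.17) and of Adar in cortex at 0.35 (SE 0.21). A further 45 interferon-stimulated genes had 31 positive in hippocampus and 26 in cortex, with a median of 0.07 in both, below the medians of 0.37 and 0.32 of the 37 genes; the difference was not tested. Gbp6 had the smallest p of these in hippocampus, at 1.36 and 1.43 CPM in tamoxifen samples against 0.544 and 0.861 in the controls (log2 fold change 0.99, SE 0.38), and Oas1g in cortex, with 59 counts in all. In the control contrast of regions, 6 of the 89 pathway genes (6.74%) were called higher in hippocampus by edgeR, near the 6.19% of all genes: Irf8 (1.08, adjusted p = 0.0384), Tlr9 (1.38, adjusted p = 0.0292), Ticam1, Tmem173, Unc93b1 and Ifngr1. Without any 1 of the 4 control samples 0 of them were called, and without hippocampal tamoxifen sample A or B 0 or 1.

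Markers of other cells moved with the samples too. Cortical tamoxifen sample B had 383.9 CPM of the endothelial sum, where the remaining cortical samples had 783.6 to 857.2 CPM, 21150 CPM of the oligodendrocyte sum against 61560 to 81550, and 235.6 CPM of the mural sum against 365.6 to 405.1. For microglia the sum was 939.5 and 889.7 CPM in cortical tamoxifen samples against 920.8 and 1074 in the controls, and 1749 and 1478 CPM in hippocampal tamoxifen samples against 1527 and 2346 in the controls. The 10 microglial genes had 0 positive log2 fold changes in hippocampus and 1 in cortex. Of the 10 neuronal genes, 10 were positive in hippocampus and 8 in cortex, and of the 10 endothelial genes 6 and 0. Of the 8 mural genes, 2 were positive in hippocampus and 0 in cortex, and of the 8 oligodendrocyte genes 0 in either region. The astrocyte sum was 10350 and 9387 CPM in hippocampal tamoxifen samples against 7704 and 8317 in the controls, with 8 of 9 genes positive. In cortex it was 7892 and 7306 CPM in tamoxifen samples against 9818 and 10580 in the controls, with 0 of 9 positive. By edgeR 0 of the 9 astrocyte genes were called in either region. Meningeal fibroblast genes had 4 of 8 log2 fold changes positive in each region. Of these genes Igf2, which choroid plexus also expresses, was at 18.46 and 287.2 CPM in hippocampal tamoxifen samples against 455 and 340.9 in the controls. Genes of border macrophages, monocytes and other leukocytes summed to 3.63 to 11.8 CPM in all samples, and the T cell gene Cd3e was at 0 in cortical tamoxifen sample B and cortical control sample B, as was Nkg7, of cytotoxic lymphocytes, in cortical tamoxifen sample A. The part of these cells in the tamoxifen contrasts was not tested.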

How the data were processed

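Total RNA was sequenced from 16 libraries of 4 groups. The deposited values used are whole-number counts of reads per gene, made with STAR as aligner and HTSeq as counter on the mm10 build, per the submitters' processing notes. The sources used here give no versions, annotation release or strand setting. Reads without a gene entered no library size: 3.64 to 7.93% per library lay outside genes and 27.53 to 35.43% aligned to several places. Libraries held 33236178 to 57195203 counts in genes.

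Libraries 1 and 2, and 3 and 4, of each group were summed, a choice made from the values. At 20 to 200 counts these 8 pairs differed by 2.55 to 2.79 times the Poisson variance, against 3.57 to 11.4 times for the 16 other pairs. Which libraries come from 1 animal is not in the labels, so the spread behind a p-value is that between these 8 samples and may be technical. After filterByExpr and TMM scaling, edgeR 4.0.16 (R 4.3.3) was fitted with group means, its quasi-likelihood test run in robust mode and p adjusted by the Benjamini-Hochberg method over 18074 genes, with 0.05 as threshold. The fit was tested on simulated data. Standard errors (SE) are those of the log2 fold change. Contrasts were tamoxifen over control in each region, their mean and difference, and control hippocampus over control cortex. Groups were called not overlapping on CPM, which is scaled by TMM, and such verdicts can change with another scaling.

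The genes, the pathway and marker lists and the tests were chosen with earlier results of these data known. Genes given by sample were those with unadjusted p under 0.05 in a tamoxifen contrast (at least 4), up to 4 of smallest p in the difference and region contrasts, and the most abundant of each class; of each pathway list, that of smallest p. Mx1, Ifit1, Ifi44, Usp18, Irf9, Oas1a and Sp100, and the regional calls among pathway genes, were named after their values were seen. Alternatives were other scalings and filters, the 16 libraries separately, DESeq2 1.42.0, limma 3.58.1 (voom with quality weights, and with correlated libraries), a replicate block and leaving out each sample. Same-lettered samples deviated with correlations of 0.283 in cortex and -0.24 in hippocampus, so letters were not taken as pairs. Coordinates and promoters are RefSeq's (GRCm38.p6), and all 37 identifiers are in GENCODE M21.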

Additional observations from a re-analysis of the deposited data

How the results depend on the processing

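Over 20 alternatives, the sign of the log2 fold change was kept throughout by 32 of 37 genes in hippocampus, 10 in cortex, 19 in the average, 13 in the difference and 18 between regions. With the 16 libraries counted separately, 3 genes were called in hippocampus (Irf7, Ifit3 and I830012O16Rik; 1.9% of all genes), 2 in cortex (Irf7 and Cmpk2; 3.36%), 4 in the average (0.794%) and 10 between regions (41.7%), and p-values are too small should neighbouring libraries repeat 1 sample. With a replicate block of the sample letter 0 were called in hippocampus and 0 in cortex, and of all genes 72 were called between regions, against 1118 without it, with 0 of the 6 pathway and 0 of the 6 microglial calls; the crossed pairing in hippocampus, added after seeing the data, called 2 between regions (11.3% of all genes). Scaling to the sum of gene rows shifted the median of all genes by 0.25 in cortex, -0.28 in the difference and 0.39 between regions (log2), and then 15 genes were positive in the difference, and 32 positive between regions with a median of 0.38 and 7 called. DESeq2 called 1 in the average and 3 between regions, limma with quality weights 7 and with correlated libraries 3 between regions. Leaving out 1 sample gave 0 to 2 calls in cortex, 10 to 37 positive and a median of -0.30 to 0.58 there, 0 to 1 calls, 19 to 37 positive and a median of 0.021 to 0.48 in the average, 11 to 31 positive and a median of -0.22 to 0.66 in the difference, and 0 to 7 calls between regions, where the 7 came without either cortical tamoxifen sample. Oasl2 in cortex ran from -0.09 without tamoxifen sample A to 1.43 without sample B. The cause of these shifts was not tested. With 2 samples a group, 0 calls do not show that the genes did not differ.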
